A study of Drosophila melanogaster with 4 samples.

Results

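The genes described here sense and repair double-strand breaks of DNA. They were chosen by gene symbol and number 10 of the 15495 genes in the deposited table, of which 9 are described. These are Ku80 and Irbp of end joining, mre11, rad50 and nbs of break processing, and the checkpoint genes tefu, mei-41, lok and p53. Their RNA was measured in sorted intestinal stem cells of adult Drosophila melanogaster, in 2 libraries of Piwi RNAi and 2 of mCherry RNAi, each from a pool of 100 guts. RNA interference against Piwi, an Argonaute protein that silences transposons, or against the foreign fluorescent protein mCherry ran for 7 days at 29 °C. The labels name yw as the source of the mCherry RNAi cells and PiwiRNAi as that of the Piwi RNAi cells. The sources used here do not give the driver line, the sex and age of the flies, or how their genetic backgrounds relate.

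A double-strand break can be sealed by non-homologous end joining, in which a ring of the Ku proteins holds the broken ends until a ligase joins them. It can instead be trimmed by the Mre11, Rad50 and Nbs complex and repaired from an intact copy of the sequence. The kinases ATM (tefu) and ATR (mei-41) signal the damage to checkpoint kinases such as Chk2 (lok), which acts on the transcription factor p53. Intestinal stem cells are the main dividing cells of the adult fly gut.

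Values are FPKM, fragments scaled to transcript length and library size, so levels can be compared between genes. A log2 difference is the mean of log2(FPKM + 1) in Piwi RNAi less that in mCherry RNAi, given with the standard error of the limma fit; the added 1 shrinks the change of low genes. The p-values of limma were adjusted by Benjamini and Hochberg's method over the 8313 genes that averaged 1 FPKM or more, and 0.05 was the threshold. All 9 genes passed that filter. With 2 libraries per group, the spread behind these tests is that between pools of flies. The limma fit moderates it toward the spread of genes of like level, so it is not each gene's own alone.

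The libraries differed as a whole. Over all tested genes, log2 differences had a median of 0.37; median of ratios scaling, which sets the typical gene level between libraries, brought this median to −0.01. mCherry RNAi replicate 1 stood apart, correlating across genes with Piwi RNAi replicates 1 and 2 at 0.858 and 0.843, while mCherry RNAi replicate 2 did so at 0.905 and 0.925. The mCherry RNAi replicates correlated with each other at 0.888 and the Piwi RNAi replicates at 0.944. By this measure mCherry RNAi replicate 2 was nearer to both Piwi RNAi libraries than to its own replicate. The targeted gene piwi was low throughout, with 0.208 and 0.442 FPKM in Piwi RNAi and 0.495 and 1.94 FPKM in mCherry RNAi. Estimated depth was 1630000 and 2310000 fragments in Piwi RNAi and 2060000 and 2090000 in mCherry RNAi.

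All 9 genes were detected in every library, and for all 9 each Piwi RNAi value exceeded each mCherry RNAi value. Of all tested genes, 51.5% did so as well. Ku80 rose, and the other 8 did not pass the test. Over all tested genes 0.613% were called higher and 0.565% lower. The median log2 difference of the 9 genes was 0.65, or 0.29 above that of all genes, and without Ku80 it was 0.62. With median of ratios scaling, 4 of the 9 genes, Ku80, Irbp, tefu and mei-41, kept this separation, as did 26.9% of all tested genes. The groups of mre11, rad50, nbs, lok and p53 overlapped on that scale.

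**Figure D1:**
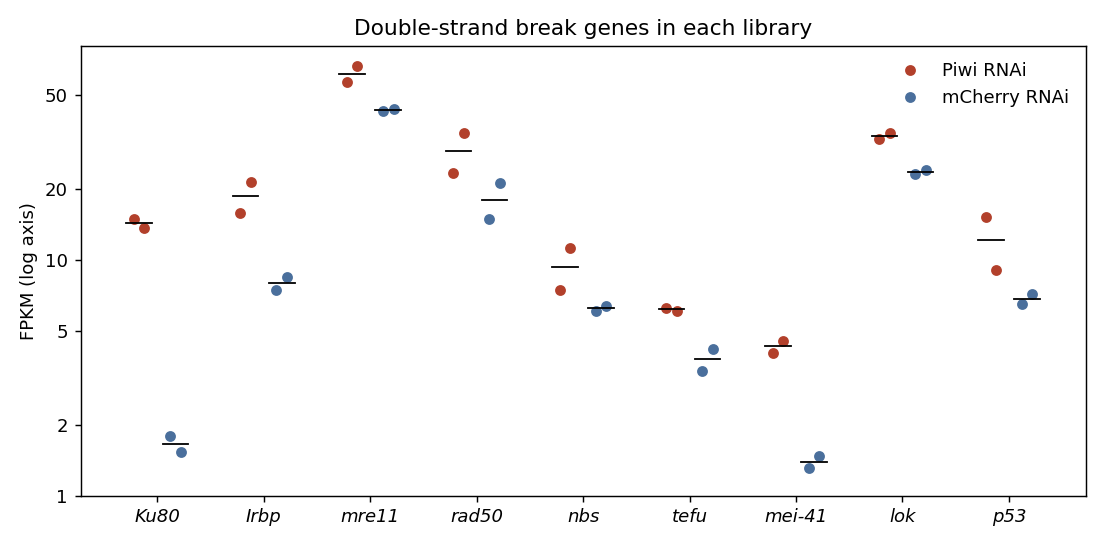
FPKM on a log axis of the 9 double-strand break genes in each of the 4 libraries, with Piwi RNAi at the left and mCherry RNAi at the right of each gene; points are libraries and bars are group means. In every gene both Piwi RNAi points lie above both mCherry RNAi points, with the widest gap in Ku80, at 14.9 and 13.7 FPKM against 1.78 and 1.53 FPKM.

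Ku80 (FBgn0041627, chromosome arm 2L) encodes a protein of the Ku ring. It had 14.9 and 13.7 FPKM in Piwi RNAi and 1.78 and 1.53 FPKM in mCherry RNAi. The groups were far apart and the replicates of each close together. Ku80 was 8.65-fold higher by group means, 14.3 ± 0.860 FPKM in Piwi RNAi and 1.66 ± 0.177 FPKM in mCherry RNAi (SD, n = 2 per group). Its log2 difference of 2.53 ± 0.28 passed the limma test (adjusted p = 0.0378) and was the 24th highest of the 8313 tested genes. The smallest difference between a Piwi RNAi and an mCherry RNAi library was 2.40 and the largest 2.65.

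The low level of Ku80 in mCherry RNAi rests on few fragments. About 53 and 69 fragments were estimated for Piwi RNAi, against 8 and 7 for mCherry RNAi. Pooled over libraries and scaled to depth, the ratio was 8.58, and counting error alone gave it an exact 95% Clopper-Pearson interval of 5.0 to 15.8. The call of Ku80 was lost with median of ratios scaling (log2 difference 2.20, limma adjusted p = 0.0682) and with any library left out, where the difference lay between 2.46 and 2.60. It was also lost without a filter on low values and without a trend in the fit, and the same test called 1 gene higher among all genes after that scaling.

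Irbp (FBgn0011774, 3R) encodes Ku70, the partner of Ku80 in the ring. It had 15.8 and 21.4 FPKM in Piwi RNAi and 7.44 and 8.49 FPKM in mCherry RNAi. The groups did not overlap, and the means were 2.34-fold apart, but the difference of 1.12 ± 0.26 did not pass the limma test (adjusted p = 0.134). Its unadjusted 95% interval was 0.44 to 1.80.

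Within a library, the ratio of Ku80 to Irbp of FPKM values does not depend on how libraries are scaled to each other. It was 0.946 and 0.641 in Piwi RNAi and 0.240 and 0.180 in mCherry RNAi. The transcripts were near equal in Piwi RNAi replicate 1, and both mCherry RNAi libraries had a lower ratio than either Piwi RNAi library. On the log2(FPKM + 1) scale the ratio differed by 1.41 between the groups, and by 0.68 with a pseudocount of 5 and 1.84 with one of 0.1. An exact two-sided permutation test over the 4 libraries gave p = 0.333, the smallest that this design allows, and 0.833 after adjustment over the 5 pairs compared.

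**Figure D2:**
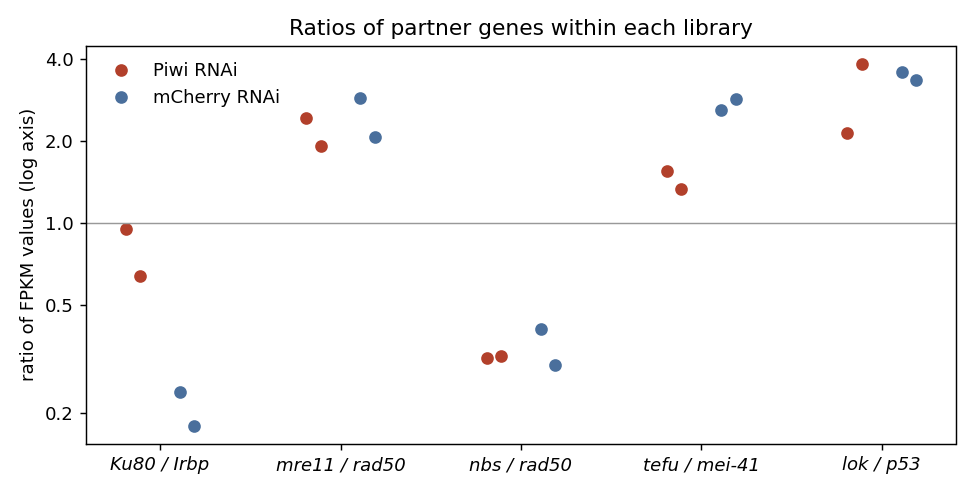
Ratio of FPKM values of 5 pairs of partner genes within each library, on a log axis, with Piwi RNAi at the left and mCherry RNAi at the right of each pair. The groups do not overlap for Ku80 to Irbp, at 0.946 and 0.641 against 0.240 and 0.180, and for tefu to mei-41; they overlap for the other 3 pairs.

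The break-processing genes lay closer to the typical gene. mre11 (FBgn0020270, 2L), which encodes the nuclease of the complex, was the most abundant of the 9 genes in every library. It had 56.8 and 66.5 FPKM in Piwi RNAi and 42.8 and 43.8 FPKM in mCherry RNAi. Its log2 difference of 0.49 ± 0.19 exceeded that of all genes by 0.13 and did not pass the limma test (adjusted p = 0.188).

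rad50 (FBgn0034728, 2R) encodes the coiled-coil ATPase that bridges broken ends. It had 23.4 and 34.7 FPKM in Piwi RNAi and 14.9 and 21.2 FPKM in mCherry RNAi. The replicates of each group differed by more than Piwi RNAi replicate 1 differed from mCherry RNAi replicate 2. Its difference was 0.65 ± 0.31 (limma adjusted p = 0.235), and it was 0.38 without Piwi RNAi replicate 2 and 0.41 without mCherry RNAi replicate 1.

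nbs (FBgn0261530, 3L) encodes the subunit that links the complex to ATM. It had 7.46 and 11.2 FPKM in Piwi RNAi and 6.10 and 6.38 FPKM in mCherry RNAi. Piwi RNAi replicate 2 alone stood well above the rest. At 0.49 ± 0.30, its log2 difference was the smallest of the 9 genes (limma adjusted p = 0.313). It was 0.76 without Piwi RNAi replicate 1 and 0.23 without Piwi RNAi replicate 2.

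The proportions of the 3 transcripts overlapped between the groups. mre11 had 2.43 and 1.92 times the FPKM of rad50 in Piwi RNAi and 2.87 and 2.07 times in mCherry RNAi. nbs had 0.319 and 0.324 times the FPKM of rad50 in Piwi RNAi and 0.409 and 0.301 times in mCherry RNAi. Both ratios had a log2 difference of −0.16 (exact permutation p = 0.667 for mre11 to rad50 and p = 1 for nbs to rad50). With 4 libraries, such p-values do not show that the proportions were alike.

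Among the checkpoint genes, mei-41 had the largest difference. mei-41 (FBgn0004367, X), the fly ATR, responds to single-stranded DNA at stalled forks and trimmed ends. It had 4.04 and 4.55 FPKM in Piwi RNAi and 1.31 and 1.47 FPKM in mCherry RNAi. These groups were 3.09-fold apart by means, the second highest fold of the 9 genes, with close replicates. The log2 difference of 1.15 ± 0.38 did not pass the limma test (adjusted p = 0.166), although its long transcript gave about 51 and 81 fragments in Piwi RNAi and 21 and 24 in mCherry RNAi.

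tefu (FBgn0045035, 3R), the fly ATM, is activated at broken ends. It had 6.28 and 6.06 FPKM in Piwi RNAi and 3.39 and 4.19 FPKM in mCherry RNAi, with a difference of 0.59 ± 0.30 (limma adjusted p = 0.256). The ratio of tefu to mei-41 was 1.55 and 1.33 in Piwi RNAi and 2.60 and 2.84 in mCherry RNAi. It was lower in both Piwi RNAi libraries, with a difference of −0.56 on the log2(FPKM + 1) scale. With a pseudocount of 5 the difference was −0.19, and with one of 0.1 it was −0.86. The exact permutation p was 0.333, again the smallest possible, and 0.833 after adjustment over the 5 pairs.

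lok (FBgn0019686, 2L), the kinase Chk2, had 32.6 and 34.5 FPKM in Piwi RNAi and 23.1 and 24.0 FPKM in mCherry RNAi. The replicates were close in both groups, and the difference of 0.49 ± 0.20 did not pass the limma test (adjusted p = 0.195). p53 (FBgn0039044, 3R) had 15.3 and 9.03 FPKM in Piwi RNAi and 6.48 and 7.16 FPKM in mCherry RNAi. Its Piwi RNAi replicates were far apart, and the difference of 0.71 ± 0.33 (limma adjusted p = 0.228) was 0.36 without Piwi RNAi replicate 1 and 1.06 without Piwi RNAi replicate 2.

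Without adjustment, 3 of the 9 genes, Ku80, Irbp and mei-41, had a p under 0.05 and were higher in Piwi RNAi, against 21.7% of all tested genes. The unadjusted 95% intervals of the other 6 reached below 0.

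**Figure D3:**
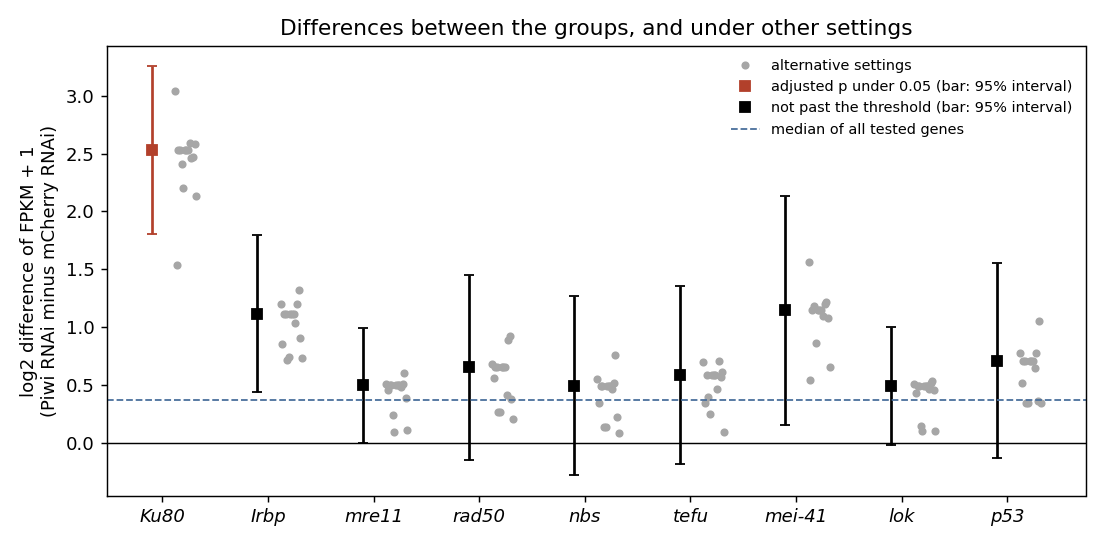
Log2 difference of FPKM + 1, Piwi RNAi minus mCherry RNAi, for each gene; squares with bars are the limma values with unadjusted 95% intervals, grey points the values under up to 14 alternative settings, and the dashed line the median of all tested genes at 0.37. Ku80 at 2.53 lies above the others, which run from 0.49 to 1.15, and every grey point is above 0.

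The order of the levels was much the same in both groups, apart from Ku80. By mean FPKM, mre11 came first, then lok, rad50 and Irbp in both. Ku80 was the fifth in Piwi RNAi and the eighth in mCherry RNAi, and mei-41 was the last in both. In Piwi RNAi the libraries of lok and rad50 overlapped, as did those of Ku80 and p53, and of p53 and nbs. In mCherry RNAi no neighbours in the order overlapped.

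Of the genes beside Ku80 on the chromosome, 1 had a smaller difference and the other was not tested. No annotated gene overlaps Ku80 in the Ensembl release 115 annotation. Its neighbour wek, a zinc finger gene, had 15.3 and 15.2 FPKM in Piwi RNAi and 6.83 and 10.4 FPKM in mCherry RNAi, a log2 difference of 0.79 (limma adjusted p = 0.175). The neighbour on the other side, CG31826, was listed at 0 in every library. Irbp lies between mgr, with a difference of −0.07, and Ipo9, with 0.99 (limma adjusted p = 0.795 and 0.167).

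Exons of 5 of the 9 genes overlap those of a gene on the opposite strand in that annotation, and without knowledge of the strand setting reads there cannot be assigned. The partners are vls for lok, CG14174 for nbs, CG9981 for mei-41, Osi21 for mre11 and the antisense RNA CR46089 for p53. The shared exon bases number 812 for p53, whose median transcript is 1723.5 nt, 121 for lok, 69 for mei-41, 51 for nbs and 9 for mre11. Of the 3 partners tested, vls had a log2 difference of 0.53, beside 0.49 for lok, CG14174 one of 0.00, beside 0.49 for nbs, and CG9981 one of −0.35, beside 1.15 for mei-41. The 3 differences of the partners did not pass the limma test (adjusted p = 0.415, 0.994 and 0.614).

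The genes with profiles nearest to that of Ku80 over the 4 libraries included DNaseII and proteasome subunits. Nearness was the distance between centred log2 values among 3531 named genes averaging 5 FPKM or more. Spn77Bc, a serine protease inhibitor gene, was nearest, with 16.3 and 15.3 FPKM in Piwi RNAi and 2.24 and 2.20 FPKM in mCherry RNAi. DNaseII, an acid nuclease, came next, with 69.2 and 63.7 FPKM in Piwi RNAi and 9.71 and 7.37 FPKM in mCherry RNAi. Rpn3, Rpn2 and Pros54 of the proteasome's regulatory particle followed, with log2 differences of 2.21, 2.20 and 2.09. The genes nearest to Irbp were the glycolytic enzyme gene Tpi, MCPH1, btsz, eIF2B-epsilon and Mms19. Their differences ran from 1.04 to 1.18 and did not pass the limma test (adjusted p = 0.0994 to 0.153).

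Other genes of DNA repair were examined in 6 lists that exclude these genes. Of 88 symbols, 82 had a row, and 74 of those were tested. By the limma test 0 rose and 0 fell, with 17 of the 74 at an unadjusted p under 0.05, against 26.6% of all tested genes. That count was 8 with median of ratios scaling, where 1480 of all 8360 tested genes had an unadjusted p under 0.05. Their median log2 difference was 0.65, or 0.29 above that of all genes, and 52 of the 74 were higher in both Piwi RNAi libraries, which is 70.3% against 51.5% of all tested genes. Lower in both Piwi RNAi libraries were 2, the photolyase gene phr at −0.65 and Fancl at −0.81, against 13.0% of all tested genes. For these lists and those below, such counts are on the deposited scale and were not taken again after median of ratios scaling.

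In the list drawn up for end joining, 7 of 7 tested genes were higher in both Piwi RNAi libraries, against 51.5% of all tested genes. Of these 7, 0 passed the test, and their median log2 difference was 0.96. Lig4, the ligase that seals ends held by Ku, had 5.47 and 5.65 FPKM in Piwi RNAi and 1.66 and 1.47 FPKM in mCherry RNAi (log2 difference 1.35 ± 0.35; limma adjusted p = 0.140). The list also holds Gen, which does not act in end joining and whose difference of 0.96 is the list median. Another such member is agt, which removes alkyl groups from guanine and does not join ends. agt had 37.1 and 36.7 FPKM in Piwi RNAi and 12.9 and 14.4 FPKM in mCherry RNAi. Its difference of 1.37 ± 0.21 had the smallest p of the 74 genes (limma adjusted p = 0.0685), and it passed when genes averaging under 5 FPKM were left out (0.0400) and with a robust prior (0.0319). mus308, the polymerase theta of alternative end joining, had a difference of 0.59.

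Resection and recombination genes had a median of 0.75 over 12 tested genes, of which 8 were higher in both Piwi RNAi libraries, against 51.5% of all genes. okr, the Rad54 translocase, had 4.46 and 4.25 FPKM in Piwi RNAi and 1.41 and 2.25 FPKM in mCherry RNAi, a difference of 0.94. Top3alpha, the topoisomerase that acts with the Bloom helicase, had a difference of 0.81 (limma adjusted p = 0.160). Brca2, a mediator of recombination, was at 0.69, with 2.54 and 4.28 FPKM in Piwi RNAi and 1.08 and 2.43 FPKM in mCherry RNAi.

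Checkpoint signalling genes had a median of 0.64 over 12 tested genes, 6 of them higher in both Piwi RNAi libraries, against 51.5% of all genes. Hus1-like, a subunit of the clamp that marks damaged DNA for ATR, had 13.1 and 14.1 FPKM in Piwi RNAi and 5.46 and 4.83 FPKM in mCherry RNAi (difference 1.25 ± 0.24; limma adjusted p = 0.108). MCPH1, the fly microcephalin, was at 1.18 ± 0.25 (limma adjusted p = 0.128). grp, the checkpoint kinase Chk1 downstream of ATR, had a difference of 0.41 and overlapping groups, and mus304, the partner of ATR, had 1.01.

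Base, nucleotide and mismatch repair genes had a median of 0.67 over 20 tested genes, led by the DNA ligase gene lig3 at 1.42 ± 0.27 (limma adjusted p = 0.103) and the nuclease gene mus201 at 1.32 ± 0.35 (adjusted p = 0.145). Parp was listed at 0 in every library. Crosslink and fork repair genes had a median of 0.47 over 12 tested genes, with 0.99 for CG7922, the fly Fancm, and 0.93 for mus205, a subunit of polymerase zeta. Genes that act on chromatin at breaks had a median of 0.51 over 11 tested genes, with 1.17 for the cohesin subunit SMC1 and 0.85 for its partner Cap, the fly SMC3. In these lists, in that order, 13, 8 and 10 tested genes were higher in both Piwi RNAi libraries, against 51.5% of all tested genes.

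Genes listed as targets of p53 or of radiation had a median below that of all genes. Of 8 tested, 0 passed the test, and the median of 0.12 was 0.24 below. Higher in both Piwi RNAi libraries were 2 of the 8, against 51.5% of all tested genes. Traf4, an adaptor of stress signalling, had 18.3 and 18.8 FPKM in Piwi RNAi and 33.7 and 37.9 FPKM in mCherry RNAi (log2 difference −0.91; limma adjusted p = 0.132). RnrL, the large subunit of ribonucleotide reductase, was at 1.06 (adjusted p = 0.166). Xrp1, a transcription factor of the damage response, was abundant in all libraries, with 1212 and 1215 FPKM in Piwi RNAi and 1358 and 1168 FPKM in mCherry RNAi. The cell death gene rpr was below 1.24 FPKM in every library and was not tested, and W, known as hid, had a difference of 0.30.

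Replication and S phase genes had a median of 0.52 over 14 tested genes, and 0 passed the test. Of these 14, 4 were higher in both Piwi RNAi libraries, against 51.5% of all tested genes. E2f, the transcription factor that drives entry into S phase, had 33.0 and 29.5 FPKM in Piwi RNAi and 13.5 and 13.3 FPKM in mCherry RNAi (difference 1.17 ± 0.21; limma adjusted p = 0.0980). CycA, a cyclin of S phase and mitosis, had 14.7 and 16.3 FPKM in Piwi RNAi and 8.30 and 12.6 FPKM in mCherry RNAi (difference 0.55 ± 0.28; limma adjusted p = 0.262). mus209, which encodes the sliding clamp PCNA, had 31.8 and 27.4 FPKM in Piwi RNAi and 12.9 and 28.6 FPKM in mCherry RNAi. There, as in Mcm2, with 6.55 and 4.77 FPKM in Piwi RNAi and 0.668 and 5.41 FPKM in mCherry RNAi, mCherry RNAi replicate 1 alone was low.

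**Figure D4:**
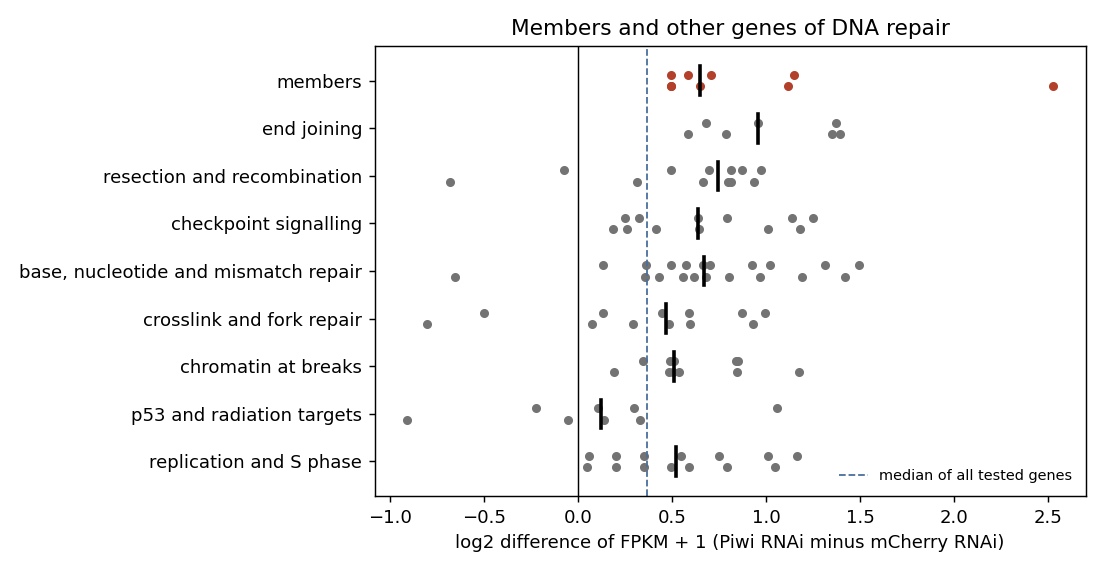
Log2 difference of FPKM + 1, Piwi RNAi minus mCherry RNAi, of the 9 genes (labelled members) and of the tested genes of each other list; points are genes, black bars list medians and the dashed line the median of all tested genes at 0.37. Ku80 at 2.53 lies beyond every other point, and the p53 and radiation targets have the lowest median, 0.12.

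Markers of enteroendocrine cells, the hormone-producing cells of the gut, had a lower sum in both Piwi RNAi libraries. Summed over 10 enteroendocrine markers, the values were 268.7 and 482.1 FPKM in Piwi RNAi and 2831 and 5582 FPKM in mCherry RNAi. Of the 8 tested markers 6 were lower in both Piwi RNAi libraries, against 13.0% of all tested genes. Orcokinin, listed as CG13565, was called lower, as were 0.565% of all tested genes. The 9 enterocyte markers summed to 1489 and 692.8 FPKM in Piwi RNAi and 14878 and 1250 FPKM in mCherry RNAi, and the 7 visceral muscle markers to 30.3 and 18.0 FPKM in Piwi RNAi and 76.4 and 17.5 FPKM in mCherry RNAi. Both of these sums overlapped between the groups, with mCherry RNAi replicate 1 alone far above the rest, and 0 of these markers passed the test. Taken singly, all 9 enterocyte markers had a negative log2 difference, with a median of −1.70. Of these, 3 were lower in both Piwi RNAi libraries, against 13.0% of all tested genes. Among the visceral muscle markers 5 differences were negative and 2 positive. The 7 markers of stem cells and enteroblasts summed to 885.9 and 853.2 FPKM in Piwi RNAi and 605.6 and 736.3 FPKM in mCherry RNAi, and 0 of them passed the test. They went different ways, with log2 differences of 1.40 for klu, 1.26 for zfh2, 0.56 for esg, 0.50 for Sox21a, 0.09 for Dl, −0.11 for Sox100B and −1.43 for sna (limma adjusted p = 0.0594 to 0.853). In bulk libraries, fewer cells of a type and less RNA per cell cannot be told apart. The log2 difference of Ku80 was 2.60 without mCherry RNAi replicate 1, the library with the highest enterocyte sum. It was 2.46 without mCherry RNAi replicate 2, the library with the highest enteroendocrine sum. The call of Ku80 was lost in both fits. Whichever mCherry RNAi library was left out, the other still had a higher enteroendocrine sum than both Piwi RNAi libraries. Leaving out a library therefore cannot separate enteroendocrine content from the group difference. The part of other cells in these results was not tested. Markers of haemocytes, germline and fat body summed to at most 5.03, 2.84 and 3.88 FPKM in any library. Among these markers, nimC1, He, eater, nos and Lsp2 were listed at 0 throughout, and the rest were not. Over the libraries srp had 3.55 to 5.03 FPKM and Yp2 1.00 to 3.88 FPKM. The germline markers aub and bam reached 1.85 and 1.31 FPKM. Hml, vas and Yp1 were above 0 only in mCherry RNAi, at up to 0.336 FPKM.

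Transcript length moved with the group difference as well. Genes under 1000 nt had a median log2 difference of 0.09, those of 2000 to 4000 nt, where Ku80 and Irbp lie, 0.43, and those of at least 6000 nt, such as tefu and mei-41, 0.49. After an adjustment for length the differences were 2.13 for Ku80 (limma adjusted p = 0.0731), 0.73 for Irbp and 0.65 for mei-41. Those of mre11, rad50, nbs, tefu, lok and p53 were then between 0.08 and 0.34. The adjustment also removed the shift between libraries, with a median of all tested genes of −0.009, against 0.37 without it. Under median of ratios scaling, which has no length term, Ku80 was at 2.20, Irbp at 0.74 and mei-41 at 0.86. The part of length alone in these reductions was not tested.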

How the data were processed

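The values are FPKM, deposited by the authors as a single table with a column per library. Per the file headers, its columns are named as Cufflinks names them; the submitters' processing notes list TopHat and Cufflinks. Libraries were made from Trizol-extracted RNA with a TruSeq kit, per the labels' protocols. The sources used here give no versions, genome build, annotation, strand setting or scaling between libraries. All 37 mitochondrial rows were 0 in every library, so a 0 was read only as listed.

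From these values limma 3.58.1 (R 4.3.3) tested log2(FPKM + 1), two-sided and with a trend, for the 8313 genes averaging 1 FPKM or more, with 2 residual and 2.86 prior degrees of freedom. The script was tested on simulated data. Alternatives were other pseudocounts, filters, scalings, priors and thresholds, a replicate block, each library left out and, chosen after seeing the data, a length adjustment (loess of each library's deviations on log2 transcript length). The 10 genes and all lists were chosen with earlier results of these data known, and 1 of the 10 is not reported here. Named from each repair, p53 target and replication list were the 2 tested genes of smallest p. Gen, mus308, phr, Fancl, Brca2, grp, mus304, Parp, Xrp1, rpr, W, mus209, Mcm2, CG31826 and the marker genes were named after their values were seen. Fragments were estimated from the steps of low values of genes with a single transcript of at least 800 nt. The effective length was taken as 130 nt below the transcript. Of such values 83.1% to 89.4% lay within 0.1 of a whole number, against 20% for a scale not fitted to them. The scale of each library was fitted to these same values, so 20% is not its chance level. Gene lengths, overlaps and neighbours are from Ensembl release 115, which holds 14845 of the 15495 identifiers; its build may differ from the authors', so no coordinates are given.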

Additional observations from a re-analysis of the deposited data

How the results depend on the processing

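The log2 differences of the 9 genes stayed above 0 under every alternative run, but several came close to it. With median of ratios scaling they were 0.094 for mre11, 0.10 for lok, 0.13 for nbs, 0.25 for tefu, 0.26 for rad50, 0.34 for p53, 0.74 for Irbp and 0.86 for mei-41, and with quantile normalization 0.24, 0.15, 0.14, 0.39, 0.27, 0.34, 0.71 and 1.18 in that order. That of Ku80 was 2.53 and ran from 1.54 at a pseudocount of 5 to 3.04 at 0.1. Its call was lost with no filter on low values (2.53, limma adjusted p = 0.147), with genes averaging under 5 FPKM left out (2.53, 0.0504), without a trend (2.53, 0.119), with quantile normalization (2.41, 0.0684), median of ratios scaling (2.20, 0.0682) and length adjustment (2.13, 0.0731). With a library left out the difference was 2.46 to 2.60 and the adjusted p 0.0970 to 0.503, with 0 calls among all genes. The number of the 9 genes called higher, 1, was 0 under each of these and at an adjusted p under 0.01. With that stricter filter, tefu and mei-41 had no value.

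Calls over all genes were 51 higher and 47 lower. They were 0 and 0 with no filter (2268 genes at an unadjusted p under 0.05), with length adjustment (1398) and at 0.01, 82 and 85 with the stricter filter, 25 and 10 with quantile normalization, 1 and 7 with median of ratios scaling, 0 and 4 without a trend, 108 and 101 with a robust prior, and 142 and 111 at an adjusted p under 0.1. Leaving out a library left 0 and 0, and 638 to 3281 unadjusted p-values were under 0.05. Genes of the 6 repair lists called higher were 0, and 1, agt, with the stricter filter, with a robust prior and at 0.1.

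With the replicate block calls were 89 and 105, and Ku80 (2.53, adjusted p = 0.0276) kept its call. Same-numbered libraries deviated with r = 0.25 across genes over 2 pairs, and the labels give no shared source.

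Of the ratios, mre11 to rad50 went from −0.16 to 0.069 without mCherry RNAi replicate 1 and to 0.0065 without Piwi RNAi replicate 2, nbs to rad50 from −0.16 to 0.055 without mCherry RNAi replicate 1, and lok to p53 from −0.22 to 0.17 without Piwi RNAi replicate 1. With a library left out, these ran from −0.38 to 0.069, −0.37 to 0.055 and −0.60 to 0.17. The cause was not tested.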
